A study of Homo sapiens with 4 samples.

Results

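The 10 genes described here encode the cytosolic HSP90 proteins (HSP90AA1 and HSP90AB1), HSP70 proteins (HSPA1A, HSPA1B and HSPA8), the HSP110 protein HSPH1, the J-domain protein DNAJB1, the mitochondrial chaperonin and its lid (HSPD1 and HSPE1) and the HSP70 co-chaperone BAG3. They are a list of symbols, drawn up with earlier results of these data known, and were looked up among the 20137 genes of the deposited tables. All 10 were found, and all 10 were among the 12136 genes that passed the filter on low values. RNA sequencing was done on MDA-MB-231, an established line from a triple-negative breast cancer. The groups were cells with a knockdown of AURKA, the mitotic kinase Aurora A (genotype AURKA KD, 2 libraries titled shA), and control cells (genotype control, 2 libraries titled shC, called mock-transfected in the design text). No sequence of a hairpin is given, and neither the time after knockdown nor whether the cells came from 1 clone is stated. Both groups were grown in the same medium with serum, with no heat shock or proteotoxic drug named in the labels, so the levels are those of unstressed culture as far as the labels go. The series set out to find transcripts that depend on AURKA.

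HSP70 proteins bind exposed hydrophobic stretches of newly made or damaged proteins and release them in cycles of ATP hydrolysis. J-domain proteins such as DNAJB1 deliver the substrate and start the hydrolysis, while HSP110 and BAG proteins exchange the nucleotide. HSP90 receives partly folded kinases and receptors from HSP70 and brings them to maturity. Under stress the transcription factor HSF1 forms trimers and binds heat shock elements, inverted repeats of the unit GAA, in the promoters of many of these genes. HSP90AB1 and HSPA8 are the constitutive members of their families, and HSP90AA1, HSPA1A, HSPA1B, DNAJB1 and BAG3 are inducible ones.

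The heat shock elements of the promoters are shown first, since HSF1 control is what the family is best known for. RefSeq (GRCh38.p14) gave 16 promoter windows for all 10 genes, each with 250 bases before and 50 after an annotated start. The words searched, in any overlap, were GAANNTTC and TTCNNGAA for 2 units and GAANNTTCNNGAA and TTCNNGAANNTTC for 3, which together cover both strands. Words of 2 units stood in windows of 7 of the 10 genes, against 16.2% of the 27305 genes with a window. Words of 3 units stood in windows of 4 of the 10, HSP90AA1, HSP90AB1, HSPA8 and HSPD1, against 0.608% of genes. Per window the shares were 13.5% and 0.49% of 35116 windows. The stretches before the start are given below with the GAA and TTC units of matched words in capitals.
HSP90AA1 (chr14:102087090-102087147, minus strand): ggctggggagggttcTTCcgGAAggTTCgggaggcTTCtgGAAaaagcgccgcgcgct
HSP90AB1 (chr6:44247763-44247805, plus strand): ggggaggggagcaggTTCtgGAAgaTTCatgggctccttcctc
HSP90AB1 (chr6:44247816-44247858, plus strand): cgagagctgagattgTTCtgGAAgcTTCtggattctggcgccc
HSPA1A (chr6:31815422-31815459, plus strand): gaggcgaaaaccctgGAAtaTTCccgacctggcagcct
HSPA1B (chr6:31827618-31827655, plus strand): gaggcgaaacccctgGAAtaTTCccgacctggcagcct
HSPA8 (chr11:123062339-123062381, minus strand): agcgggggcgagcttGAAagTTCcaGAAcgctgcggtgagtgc
HSPA8 (chr11:123062164-123062206, minus strand): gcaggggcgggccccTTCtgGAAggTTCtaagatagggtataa
DNAJB1 (chr19:14518422-14518489, minus strand): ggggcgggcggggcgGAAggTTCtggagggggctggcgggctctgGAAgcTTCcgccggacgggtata
HSPD1 (chr2:197500053-197500090, minus strand): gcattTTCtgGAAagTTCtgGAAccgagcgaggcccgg

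In HSP90AA1 the 3-unit word began 88 bases before an annotated start that lies 147 bases from the start of its highest transcript. The same word stood in both stretches of HSP90AB1, before the third of its 3 annotated starts. That start lies 856 bases from the start of the transcript with the highest value. The HSP90AB1 window nearest that transcript's start, 14 bases from it, held none of the words. HSPA8 carried 1 such word near the start and 1 further out, in a window whose start lies 804 bases from that of its highest transcript. HSPD1 carried overlapping words that lie outside the window of HSPE1, its neighbour on the other strand. The start of that HSPD1 window lies 207 bases from that of the highest HSPD1 transcript. The windows of HSPH1, HSPE1 and BAG3 held none of the words, which says only that these letters are not in these windows.

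**Figure D1:**
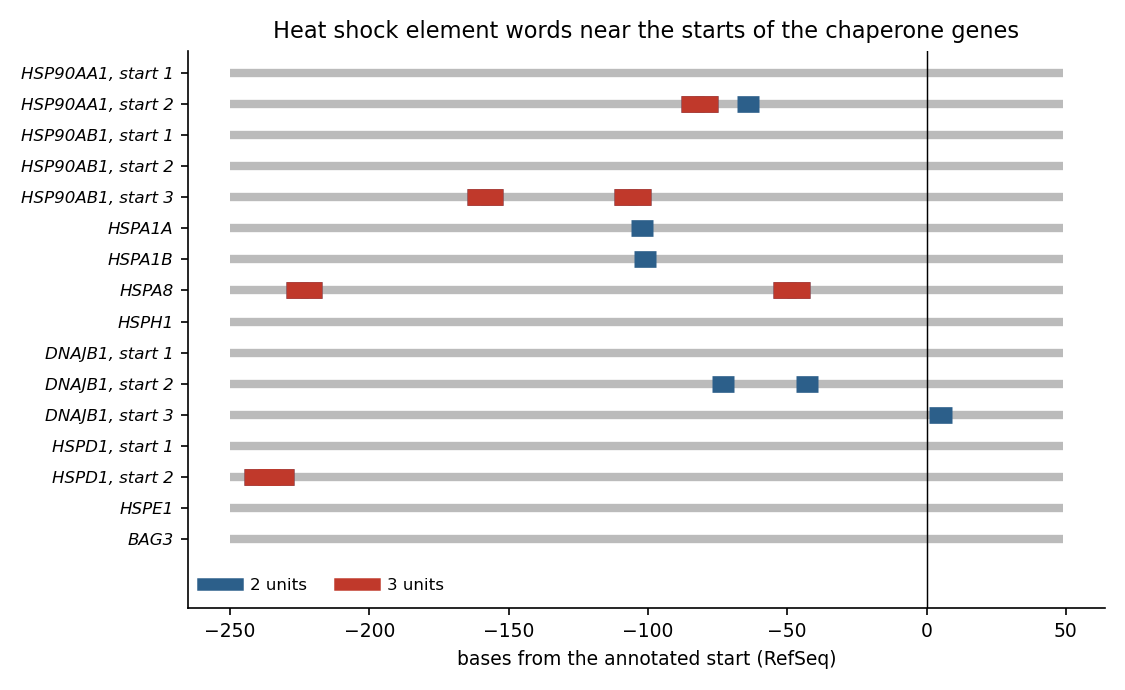
Positions of heat shock element words in the 16 RefSeq promoter windows of the 10 genes, in bases from the annotated start (line at 0), with 1 row per start. Grey bars are the windows searched, blue marks words of 2 units and red words of 3 units. Red marks stand in windows of 4 genes, and HSPH1, HSPE1 and BAG3 have no mark.

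Values are FPKM, which are scaled by transcript length and library depth, so levels of different genes are compared per length. Depths estimated from the value of a single fragment were 21300000 and 27600000 fragments in knockdown replicates 1 and 2 and 17400000 and 24200000 in control replicates 1 and 2. At these rough depths the member with the fewest fragments, HSPA1A, had 1200 to 2600 per library, a counting error of 2% to 2.9%. AURKA itself was at 22.3 and 23.7 FPKM in the knockdown, against 124 and 99.1 FPKM in the controls (adjusted p 0.0819 without and 0.000696 with the replicate number as a term in limma). The mesenchymal markers VIM, CD44, MSN, AXL and CAV1 were present in all 4 libraries, the least of them CAV1 with 138 to 171 FPKM. ESR1, PGR and CDH1 were at most 0.271 FPKM, and the leukocyte genes PTPRC and CD3E were at or near 0. Other markers listed as absent or low were detected, ERBB2 at 16.5 to 20.2 FPKM and GATA3 at 2.07 to 2.36 FPKM. Of the fibroblast genes, COL1A1 was at 1.04 to 3.61 FPKM, and PDGFRA and DCN were at most 0.464 FPKM. Differences are on the scale of log2(FPKM + 1), knockdown minus control. Each was tested with limma across all tested genes, without and with the replicate number as a term, because the tables of a replicate number share their row order and transcript set and so were made together. With 2 libraries a group, the p-values of the fit without the term rest in part on the spread between these samples. Those with the term rest in part on how far the 2 differences, 1 per replicate number, disagree. In both fits limma also moves each gene's spread toward a trend over all tested genes. Neither p-value therefore measures a gene's own spread alone.

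HSP90AA1 was 1.46-fold lower in the knockdown, and 9 of the 10 genes had a mean below the controls. The exception was BAG3, the HSP70 co-chaperone of selective autophagy, which was 1.27-fold higher. The knockdown library was below its control in both replicate numbers for 8 of the 10 genes, against 31.7% of all tested genes, and above it in both for BAG3 only, against 35.3% of all tested genes. HSPA8 went opposite ways in the 2 numbers. In bulk RNA such as this, fewer cells of a type and less RNA per cell cannot be told apart. The median difference of the 10 genes was -0.15, against 0.01 over all tested genes. It was -0.09 in replicate number 1 and -0.22 in replicate number 2, against -0.01 and 0.03 over all tested genes. These median differences were small beside the differences between replicates. The median was negative within both replicate numbers. It turned positive with knockdown replicate 1 or control replicate 2 left out, which leaves the groups unbalanced between the replicate numbers, as given further on.

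**Figure D2:**
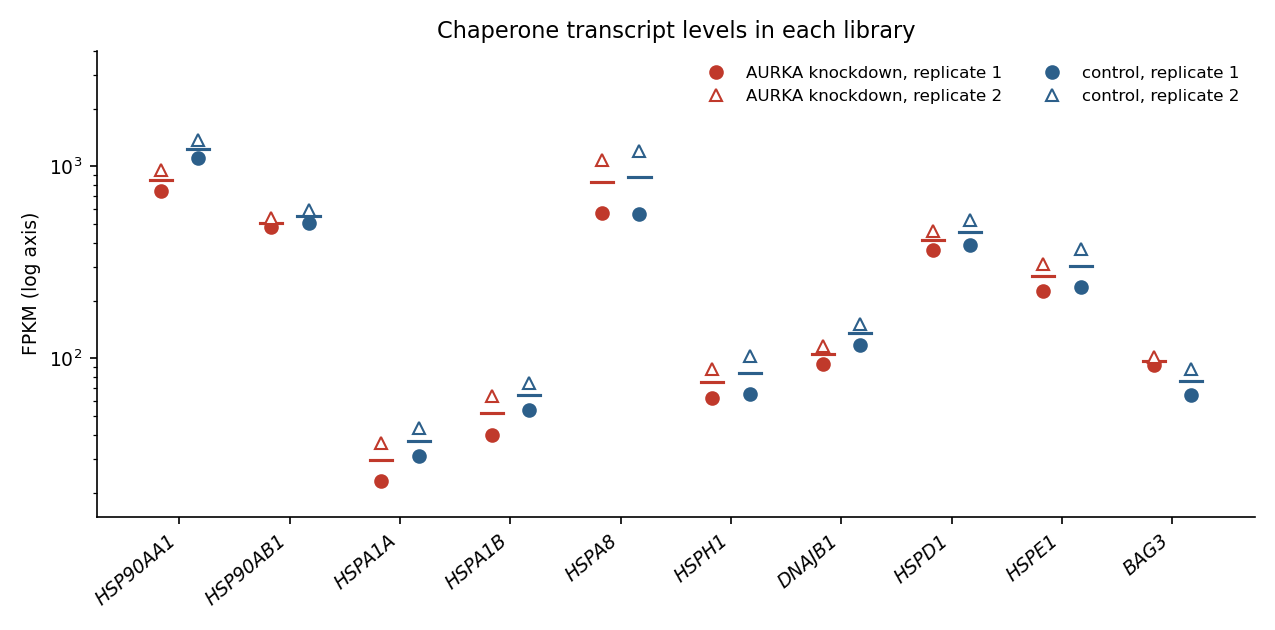
FPKM of each of the 10 genes in the 4 libraries on a log axis, with the AURKA knockdown in red to the left of the control in blue; filled circles are replicate 1, open triangles replicate 2, and lines the means of 2. Replicate 2 lies above replicate 1 in both groups for all 10 genes, and HSP90AA1, DNAJB1 and BAG3, 3 of the 10, have groups that do not overlap, against 35.9% of all tested genes.

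HSP90AA1, the inducible cytosolic HSP90 (ENSG00000080824, locus on chromosome 14 from 102547075 to 102606023 in GRCh37), had 743 and 954 FPKM in the knockdown, against 1109 and 1368 FPKM in the controls. Both knockdown libraries were below both controls, as held for 16.6% of all tested genes. The means were 848 ± 150 and 1238 ± 183 FPKM (SD, n = 2 each), a log2 difference of -0.55. It was -0.58 in replicate number 1 and -0.52 in number 2, so the 2 pairs gave nearly the same size. In limma the standard error was 0.19 without the replicate number, with an adjusted p of 0.674, and 0.10 with it, with an adjusted p of 0.0341. HSP90AA1 was the only member called, and only with the term: 1 of 10 members was lower and 0 were higher, against 3.44% of all tested genes called, 1.9% lower and 1.53% higher. The call did not hold with the term when the filter on low values was dropped (adjusted p 0.186) or the highest transcript was used (0.0542), and its adjusted p was 0.00635 to 0.0467 with the term under the other settings tried. Without the term limma called 0 members and 0.0% of all tested genes, with HSP90AA1 the only member of the 10 at an unadjusted p under 0.05 (6.37% of all tested genes). With the term 5 members were under 0.05 unadjusted, against 22.1% of all tested genes. The calls moved with the scaling. With median-of-ratios scaling and the term, 4 members were lower (HSP90AA1, DNAJB1, HSPA1A and HSPA1B) and 1 was higher (BAG3), against 9.63% of all tested genes called, 5.49% lower and 4.14% higher. With totals taken without mitochondrial genes and the term, 2 were lower (HSP90AA1 and DNAJB1) and 1 was higher (BAG3), against 4.52% of all tested genes called, 1.95% lower and 2.56% higher.

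HSP90AB1, the constitutive cytosolic HSP90 (ENSG00000096384, chromosome 6, 44214824 to 44221620), had 481 and 538 FPKM in the knockdown, against 507 and 593 FPKM in the controls. The groups overlapped, and the log2 difference was -0.11 ± 0.14 (standard error, adjusted p 0.94 in limma without and 0.498 with the term). The ratio of HSP90AA1 to HSP90AB1, which no scaling of a library can change, was 1.54 and 1.77 in the knockdown, against 2.186 and 2.31 in the controls. Both knockdown ratios were below both control ratios. The difference in log2 ratio was -0.44, with -0.50 in replicate number 1 and -0.38 in number 2. The exact two-sided permutation test over the 4 libraries gave p = 0.333, the smallest value that 2 against 2 allows. Taken from the main transcript of each gene, the difference was -0.48.

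HSPA1A and HSPA1B, the stress-inducible HSP70 pair, lie beside each other on chromosome 6 and are nearly the same in sequence. Their loci are at 31777396 to 31785723, joined with HSPA1L, and at 31795512 to 31798031. In GENCODE 29, 74.3% of the 31-base windows of the main HSPA1A transcript also occur in HSPA1B, so the split of reads between them is uncertain. HSPA1A (ENSG00000204389) had 23.0 and 36.3 FPKM in the knockdown, against 31.01 and 43.3 FPKM in the controls. HSPA1B (ENSG00000204388) had 39.9 and 63.9 FPKM in the knockdown, against 54.0 and 74.5 FPKM in the controls. Each was lower in the knockdown within both replicate numbers, with groups that overlap. The ratio of HSPA1B to HSPA1A stayed between 1.72 and 1.76 in all 4 libraries. Summed as 1 gene the pair had a log2 difference of -0.33, with an adjusted p of 0.896 without and 0.0859 with the term.

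HSPA8, the constitutive HSP70 HSC70 (ENSG00000109971, chromosome 11, 122928197 to 122933938), had 575 and 1080 FPKM in the knockdown, against 568 and 1199 FPKM in the controls. The groups overlapped, and replicate 2 was above replicate 1 by 0.91 on the log2 scale in the knockdown and by 1.08 in the controls. The knockdown difference was -0.07 ± 0.44 (standard error, adjusted p 0.995 in limma without and 0.732 with the term). HSPH1, the HSP110 nucleotide exchange factor of HSP70 (ENSG00000120694, chromosome 13, 31710762 to 31736525), had 62.0 and 88.4 FPKM in the knockdown, against 65.6 and 103 FPKM in the controls. It was lower within both replicate numbers, by -0.08 and -0.21, and did not pass (adjusted p 0.969 and 0.332 in the same fits).

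DNAJB1, the HSP40 that stimulates HSP70 and feeds back on HSF1 (ENSG00000132002, chromosome 19, 14625582 to 14676792, a locus that the files join with TECR), had 93.6 and 116 FPKM in the knockdown, against 118 and 152 FPKM in the controls. Both knockdown libraries were below both controls, the higher of them by little, as held for 16.6% of all tested genes whatever the gap. The means were 105 ± 15.98 and 135 ± 23.9 FPKM (SD, n = 2 each). The log2 difference was -0.36, and the pairs gave -0.33 and -0.38. The adjusted p was 0.822 in limma without and 0.058 with the term, short of the threshold. The neighbour TECR differed by 0.06 and -0.03 on the log2 scale within the 2 replicate numbers.

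BAG3 (ENSG00000151929, chromosome 10, 121410882 to 121437331), which couples HSP70 to small heat shock proteins and to autophagy, had 92.5 and 102 FPKM in the knockdown, against 64.8 and 88.2 FPKM in the controls. Both knockdown libraries were above both controls, as held for 19.4% of all tested genes. The log2 difference was 0.35, from 0.51 in replicate number 1 and 0.20 in number 2. It did not pass in limma as deposited (adjusted p 0.822 without and 0.0968 with the term), and with the term it passed after either rescaling named above. BAG3 shared no 31-base window with another gene of GENCODE 29, so its value does not rest on how shared reads were split.

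HSPD1 and HSPE1, the chaperonin HSP60 and its lid HSP10 of the mitochondrial matrix, are divergent neighbours in 1 locus of the files (chromosome 2, 198351305 to 198418423), together with MOB4 and the HSPE1-MOB4 readthrough. HSPD1 (ENSG00000144381) had 365 and 463 FPKM in the knockdown, against 391 and 524 FPKM in the controls. HSPE1 (ENSG00000115541) had 226 and 311 FPKM in the knockdown, against 237 and 371 FPKM in the controls. Both were lower within each replicate number, with overlapping groups and adjusted p of 0.948 and 0.957 without and 0.377 and 0.321 with the term. The ratio of HSPE1 to HSPD1 was 0.618 and 0.670 in the knockdown, against 0.605 and 0.707 in the controls, with overlapping groups. Taken from the highest transcript of each gene it was 0.625 and 0.575 in the knockdown, against 0.648 and 0.668 in the controls, where the groups did not overlap (log2 -0.13), so the ratio depends on the transcripts counted. The readthrough was at 3.01 and 6.59 FPKM in the knockdown, against 3.61 and 5.76 FPKM in the controls.

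**Figure D3:**
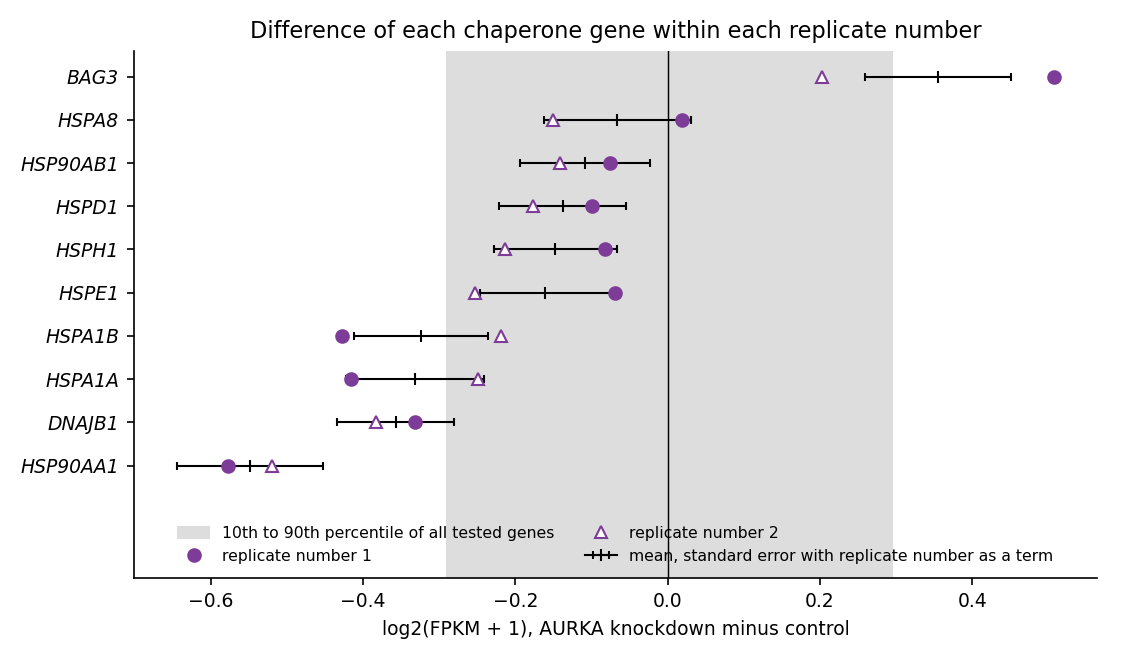
Difference of each gene in log2(FPKM + 1), AURKA knockdown minus control, within replicate number 1 (filled circles) and 2 (open triangles), with the mean and its standard error in limma when the replicate number is included. The grey band spans the 10th to the 90th percentile of all tested genes, -0.29 to 0.29. HSP90AA1, DNAJB1, HSPA1A and HSPA1B have means below the band and BAG3 a mean above it.

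**Figure D4:**
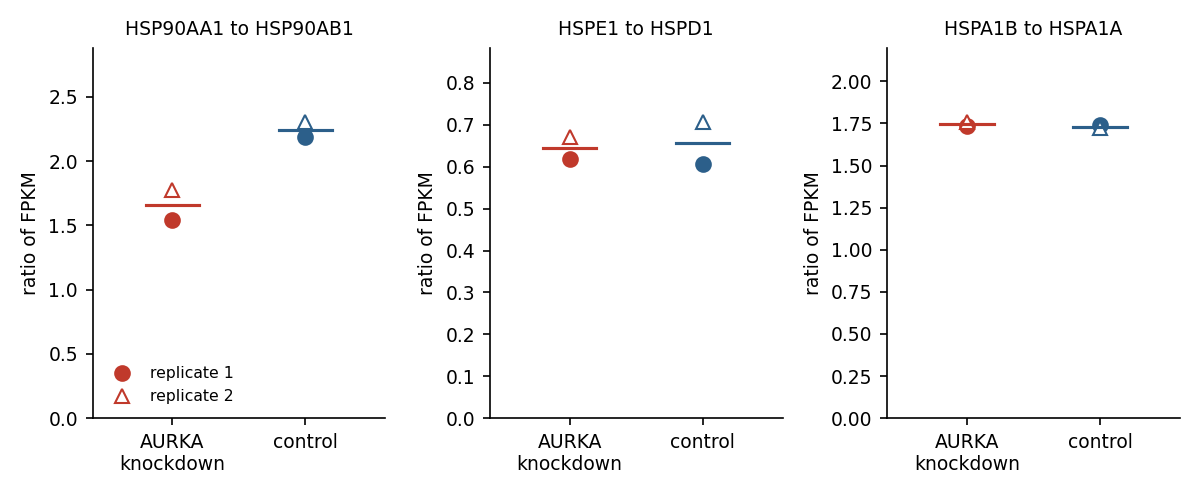
Ratios of FPKM within a library for 3 pairs of genes, AURKA knockdown left of control, with replicate 1 as filled circles, replicate 2 as open triangles and the means as lines. The ratio of HSP90AA1 to HSP90AB1 is 1.54 and 1.77 in the knockdown and 2.186 and 2.31 in the controls, while the groups overlap for HSPE1 to HSPD1 and for HSPA1B to HSPA1A, all from values summed over transcripts.

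By level the 10 genes spanned a wide range, with HSP90AA1 at rank 141 and 113 of the 12136 tested genes in the knockdown and 101 and 78 in the controls. HSPA8 (ranks 99 to 168) and HSP90AB1 (175 to 191) followed, then HSPD1 and HSPE1. HSPA8 and HSP90AA1 changed places in knockdown replicate 2, so their order does not hold beyond the replicate spread. DNAJB1, BAG3, HSPH1, HSPA1B and HSPA1A were lower. DNAJB1 was above BAG3 in all 4 libraries, by little in knockdown replicate 1 (93.6 against 92.5 FPKM). BAG3 was above HSPH1 in both knockdown libraries and below it in both controls, by little in control replicate 1 (64.8 against 65.6 FPKM). The values of the 10 genes summed to 0.361% and 0.522% of all FPKM in the knockdown, against 0.437% and 0.593% in the controls, with overlapping groups.

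All 10 genes were higher in replicate 2 than in replicate 1 in both groups, against 30.8% of all tested genes. The median difference between the replicates was 0.41 in the knockdown and 0.45 in the controls, against -0.04 and -0.07 over all tested genes. For 7 of the 10 genes this was larger than the difference between knockdown and control, against 58.9% of all tested genes. HSP90AA1, DNAJB1 and BAG3 were the ones where the knockdown difference was the larger. What differed between the replicates is not given in the labels, and its part in these results was not tested.

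One transcript gave most of the value of each gene, the least in HSPA8. For HSP90AA1 it was ENST00000216281, with 632 and 847 FPKM in the knockdown, against 975 and 1239 FPKM in the controls. A short transcript of the same gene, ENST00000553585, with 581 bases in GENCODE 29, was at 90.7 and 89.6 FPKM in the knockdown, against 115 and 110 FPKM in the controls. Both transcripts were lower in both knockdown libraries than in both controls. HSPA8 had 52% to 55.8% of its value on ENST00000227378. Its transcript ENST00000533540 took 13.9% and 22.5% in the knockdown, against 11.3% and 23.6% in the controls, again a difference between replicates. In DNAJB1 the short ENST00000596853 was at 0.00865 and 0 FPKM in the knockdown, against 8.20 and 11.1 FPKM in the controls, and ENST00000595992 was at 5.88 and 12.5 FPKM, against 0.0325 and 2.80 FPKM. Splits between overlapping transcripts are estimates of the authors' program, and the DNAJB1 pair was picked after its values were seen. The 31-base windows of the main transcript were shared with other genes, pseudogenes among them, to 37.5% in HSP90AA1, 41.7% in HSP90AB1, 46.3% in HSPA8, 46.5% in HSPD1, 31.5% in HSPE1, 7.79% in DNAJB1 and 0.329% in HSPH1.

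Of the regulators, HSF2 passed as lower only with the term, and HSF1 did not pass. HSF2, a heat shock factor that can form mixed trimers with HSF1, had 18.5 and 16.4 FPKM in the knockdown, against 29.3 and 23.5 FPKM in the controls (log2 -0.56 ± 0.16, standard error without the term, adjusted p 0.585 without and 0.0331 with the term in limma). Both knockdown libraries were below both controls, as for 16.6% of all tested genes. HSF1, named here after its values were seen because it is the main regulator of the family, had 47.0 and 52.8 FPKM in the knockdown, against 47.2 and 43.6 FPKM in the controls (adjusted p 0.919 and 0.459). The HSF2 call with the term was lost without the filter on low values (adjusted p 0.179) and with the highest transcript (0.0669). HSF4 had the largest difference of the list, higher by 0.70 on the log2 scale. It was at 8.97 and 4.79 FPKM in the knockdown, against 3.59 and 3.76 FPKM in the controls. It did not pass as deposited (adjusted p 0.779 without and 0.115 with the term in limma). Among 9 tested heat shock factors and HSF1 regulators 1 was called lower and 0 higher with the term, against 1.9% and 1.53% of all tested genes. Their median was -0.10.

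None of the 22 HSP90 co-chaperones passed as deposited, without or with the term (median -0.12). Within both replicate numbers 14 were lower and 6 higher, against 31.7% and 35.3% of all tested genes. STIP1, the adaptor between HSP70 and HSP90, had 168 and 202 FPKM in the knockdown, against 200.2 and 238 FPKM in the controls. AHSA2, a relative of the HSP90 ATPase activator AHSA1, had 9.61 and 7.74 FPKM in the knockdown, against 7.35 and 4.39 FPKM in the controls, and passed as higher with the term after median-of-ratios scaling (adjusted p 0.0234). Of the HSP90 paralogs of other compartments, HSP90B1 in the endoplasmic reticulum was at 327 and 371 FPKM, against 345 and 355 FPKM in the controls, and TRAP1 in mitochondria at 67.9 and 74.9 FPKM, against 77.4 and 76.6 FPKM. Neither passed.

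All 14 tested subunits of the cytosolic chaperonin TRiC and its helper prefoldin had a log2 difference below 0, against 5787 of the 12136 tested genes. Within both replicate numbers 11 were lower and 0 higher, against 31.7% and 35.3% of all tested genes. The other 3 went opposite ways in the 2 numbers. The differences ran from -0.27 to -0.03 with a median of -0.11, and 0 passed. The 2 with the largest difference were prefoldin subunits. PFDN6 had 133 and 135 FPKM in the knockdown, against 169 and 155 FPKM in the controls. PFDN2 had 165 and 160 FPKM in the knockdown, against 188 and 194 FPKM in the controls. The groups of PFDN6 and PFDN2 did not overlap, as held for 35.9% of all tested genes.

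The groups that follow, up to and with the HSF1 targets, had genes in both directions, with 0 genes past the threshold as deposited. Of 10 tested HSP70 and HSP110 genes outside the members (median -0.05), HSPA4L, an HSP110, had 11.7 and 13.1 FPKM in the knockdown, against 14.9 and 16.6 FPKM in the controls. HSPA5, the HSP70 of the endoplasmic reticulum, had 189 and 255 FPKM in the knockdown, against 166 and 187 FPKM in the controls. Of 13 other J-domain proteins (median -0.00), DNAJB9, which serves HSPA5, had 8.75 and 9.30 FPKM in the knockdown, against 6.17 and 5.003 FPKM in the controls, and DNAJB2 had 8.51 and 7.77 FPKM, against 7.04 and 4.995 FPKM. The groups of HSPA4L, HSPA5, DNAJB9 and DNAJB2, named for the largest differences, did not overlap, as held for 35.9% of all tested genes. DNAJB9 passed as higher with the term after median-of-ratios scaling (adjusted p 0.00915).

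Among 9 nucleotide exchange factors (median 0.06), BAG1, BAG2 and BAG4, relatives of BAG3, were higher within both replicate numbers, BAG5 was lower within both and BAG6 was mixed, and none passed. BAG2 had 26.0 and 33.4 FPKM in the knockdown, against 20.7 and 27.2 FPKM in the controls, and BAG1 23.6 and 30.3 FPKM, against 16.7 and 28.5 FPKM. The list of small heat shock proteins and BAG3 partners included genes with an HSPB symbol, HSPB11 among them, whose function was not checked. Only 4 of its 12 genes reached the filter (median 0.01). HSPB8, the partner of BAG3, had 2.59 and 4.12 FPKM in the knockdown, against 2.36 and 3.16 FPKM in the controls, and HSPB11 41.5 and 48.03 FPKM, against 37.9 and 57.0 FPKM.

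Of 12 mitochondrial chaperones and proteases (median -0.02), the exchange factor GRPEL2 had 25.7 and 26.7 FPKM in the knockdown, against 21.0 and 22.3 FPKM in the controls. Its relative GRPEL1 had 23.9 and 29.4 FPKM in the knockdown, against 27.0 and 31.02 FPKM in the controls. Of 14 other stress-inducible HSF1 targets (median -0.14), 11 had a log2 difference below 0, against 5787 of the 12136 tested genes. Within both replicate numbers 7 were lower and 2 higher, against 31.7% and 35.3% of all tested genes. Among the 14, IER5 had 18.4 and 13.8 FPKM in the knockdown, against 27.0 and 18.5 FPKM in the controls. RGS2 had 4.53 and 4.78 FPKM in the knockdown, against 6.995 and 6.08 FPKM in the controls. Neither passed as deposited (adjusted p 0.822 and 0.779 without and 0.0569 and 0.146 with the term). The groups of IER5 and RGS2 did not overlap, as held for 35.9% of all tested genes. IER5 passed as lower with the term after median-of-ratios scaling (adjusted p 0.00915).

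Among 19 tested HSP90 clients (median 0.11), AURKB, the Aurora kinase of the centromere and midzone, fell with the term (45.1 and 36.3 FPKM in the knockdown, against 70.7 and 54.3 FPKM in the controls, adjusted p 0.628 without and 0.0176 with it), and no other client passed. That call was lost with the term without the filter on low values (adjusted p 0.139) and with the highest transcript (0.0737). Over all pathway groups, counting each gene once, 118 genes were tested. With the term 2 of them were lower and 0 higher, against 1.9% of all tested genes lower and 1.53% higher, and without it 0 passed. With the term and median-of-ratios scaling 3 were lower (HSF2, IER5 and AURKB) and 3 higher (AHSA2, DNAJB9 and HSF4, the last named after its values were seen), against 5.49% and 4.14% of all tested genes. Of the 118, 55 were lower and 33 higher within both replicate numbers, against 31.7% and 35.3% of all tested genes. Both knockdown libraries were below both controls for 23 and above them for 20, against 16.6% and 19.4% of all tested genes.

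**Figure D5:**
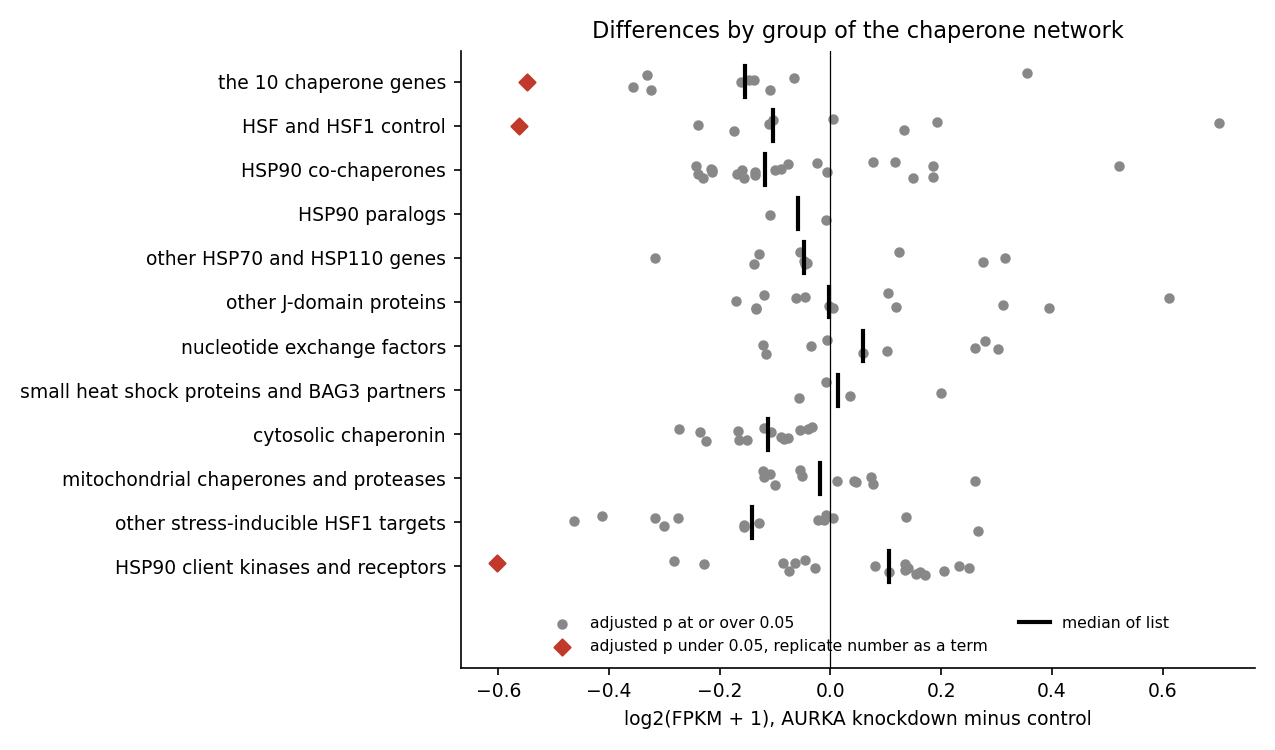
Difference of each tested gene in log2(FPKM + 1), AURKA knockdown minus control, for the 10 chaperone genes and 11 groups of the chaperone network, with 1 point per gene and a black bar at the median of the group. Red diamonds are HSP90AA1, HSF2 and AURKB, which pass with the replicate number as a term. All 14 points of the cytosolic chaperonin lie below 0, against 5787 of the 12136 tested genes, and 11 of the 14 were lower within both replicate numbers.

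The genes with the profile most like that of HSP90AA1 over the 4 libraries were SEH1L, UTP11L, NUP43, UCHL3 and PTMA, by Euclidean distance between centred log2 values (0.0586 to 0.13) among 5062 genes that are no member and average at least 20 FPKM. SEH1L, a subunit of the nuclear pore, had 32.7 and 42.4 FPKM in the knockdown, against 46.9 and 60.1 FPKM in the controls. PTMA, prothymosin alpha, had 748 and 884 FPKM in the knockdown, against 991 and 1326 FPKM in the controls. UTP11L and UCHL3 were lower in the knockdown by -0.56 and -0.46 on the log2 scale and NUP43 by -0.63. DNAJB1 was the nearest member, at a distance of 0.199, and BAG3 the farthest, at 0.922. For the mean profile of the 10 genes the nearest were RPF2, TIPIN, DENR, RSL1D1 and HMGN2, at 0.0227 to 0.0666. With 4 libraries such likeness is a description only.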

How the data were processed

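Each library has its own deposited table of 81493 transcripts. Its values carry no stated unit; as deposited they are fractional with totals that differ (718978 to 761641), and were taken as FPKM. Per the submitters' processing notes, hg38, HTSeq 0.8.0 and bcl2fastq 2.19 were used; no source used here names the program that made the FPKM. A locus on chromosome 4 ends at 191013719, a length that fits GRCh37, so coordinates of the files are given as GRCh37 although the notes name hg38. Their starts were taken to count from 0, and 1 was added. End minus start equals the GENCODE 29 gene length for 7474 of 13971 loci of 1 gene. It is 1 base short of that length, as starts from 1 would give, for 286, and the remaining loci fit neither.

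The 81412 transcripts in all 4 tables were summed by gene ID. Differences were fitted with limma 3.58.1 (R 4.3.3, trend) on log2(FPKM + 1), two-sided, over genes that reached 1 FPKM in 2 or more libraries, with Benjamini-Hochberg adjustment over all tested genes and a threshold of 0.05. Fold changes on this scale understate those of low genes. The fit has no replicate block; a second fit has the replicate number as a term, because row order was the same within a number and differed between the numbers, 81 transcripts stood only in the tables of each number, and 1707 shared transcripts had another locus in replicate 2. The design text calls the libraries biological replicates, and the labels do not say what the number marks. The scripts were tested on simulated data.

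Read totals were not used here. Depth was estimated from genes with 1 transcript over 2000 bases and values under 0.3 FPKM, and no count test was run. The kit's strand setting is not stated, so antisense and overlapping genes cannot be told apart. Promoter windows are from RefSeq (GRCh38.p14), and their coordinates were not mixed with those of the files.

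The members and the gene lists were chosen with earlier results of these data known. Named were all members, AURKA, of each list the genes past the threshold in either fit or otherwise the 2 with the largest difference, and the 5 genes nearest in profile.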

Additional observations from a re-analysis of the deposited data

How the results depend on the processing

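Limits come first from the 2 libraries a group and from the difference between the replicates, which exceeded that between the groups for most members. The count of members called, 0 without the replicate number, was 1 with the replicate block and also 1 when the block was joined with a pseudocount of 0.1, a filter at 5 FPKM or HSPA1A and HSPA1B summed. It was 5 with the block and median-of-ratios scaling and 3 with the block and totals without mitochondrial genes. Pathway genes called were 0 in the fit as reported, 2 with the block, alone or with any of those choices other than median-of-ratios scaling, and 6 (3 higher, 3 lower) with the block and median-of-ratios scaling. With the block, no filter on low values gave 0 for both, as did the highest transcript of each gene. Genes called over the whole table were 417 with the block, 1169 (503 higher, 666 lower) with median-of-ratios scaling, 548 (311 higher, 237 lower) with totals without mitochondrial genes, 411 with the HSPA1 pair summed, 287 with a pseudocount of 0.1, 424 with a filter at 5 FPKM, 158 with the highest transcript and 0 with no filter. Without the block they were 1 with a filter at 5 FPKM, 2 with median-of-ratios scaling, 1 with totals without mitochondrial genes, and 6 to 15 with a library left out. The settings that join the block with the pseudocount, the filters, the highest transcript or the summed pair were chosen after seeing the data. AURKA passed at -2.22 with the block, alone or with the summed pair or the filter at 5 FPKM, at -2.23 with median-of-ratios scaling without and with the block, at -2.19 with the block and totals without mitochondrial genes, at -2.27 with the block and a pseudocount of 0.1, at -2.45 with the block and the highest transcript, and at -2.38 to -2.06 with a library left out.

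With a library left out, groups of 1 and 2 libraries are unbalanced between the replicate numbers, and the lone library is assumed to vary like the other group. The members' median was -0.46 without knockdown replicate 2 and -0.51 without control replicate 1, and 0.0219 without knockdown replicate 1 and 0.0386 without control replicate 2. Ranges over the left-out libraries crossed 0 for HSP90AB1 (-0.22 to 0.0045), HSPA1B (-0.66 to 0.0099), HSPA8 (-0.61 to 0.47), HSPH1 (-0.47 to 0.17), HSPD1 (-0.35 to 0.0727) and HSPE1 (-0.48 to 0.16), and for HSP90B1 (-0.097 to 0.0828), BAG1 (-0.0903 to 0.65), HSPB8 (-0.0571 to 0.46), HSPB11 (-0.34 to 0.23), GRPEL1 (-0.27 to 0.0226), RPF2 (-0.44 to 0.0573), TIPIN (-0.44 to 0.0661), DENR (-0.39 to 0.096), RSL1D1 (-0.41 to 0.13) and HMGN2 (-0.49 to 0.0507). HSP90AA1 (-0.73 to -0.37), DNAJB1 (-0.54 to -0.18), HSPA1A (-0.65 to -0.01) and BAG3 (0.14 to 0.57) kept their sign, and the log2 ratio of HSP90AA1 to HSP90AB1 was -0.54 to -0.34. HSP90B1 was 0.0285 with totals without mitochondrial genes, with and without the block. Deviations of same-numbered libraries from their group means correlated at r = 0.645 across genes.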
